A study of Mus musculus with 56 samples.

Results

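The genes described here are 8 transcription factors that steer activated CD8 T cells between effector and memory fates: *Tbx21*, *Eomes*, *Prdm1*, *Zeb2*, *Runx3*, *Bhlhe40*, *Irf4* and *Gata3*. They were chosen by symbol, as the rows of the raw RNA count table whose Ensembl identifier maps to 1 of these names, and all 8 of 8 were found among 55359 genes. Each also passed the filter on low counts, with 19657 genes tested. RNA-Seq was done by SmartSeq2, a full-length method for few cells, on 200 live cells per library, sorted as CD8 T cells that bind an OVA:Kb tetramer (TFGS). OVA, a model antigen carried by the skin donor and by the father, stands for a fetal antigen in this design, so that TFGS are the maternal cells able to recognize the fetus.

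All mice were adult C57BL/6 females without a transgene of their own, and cells came from the spleen and pooled lymph nodes of individual mice. Naive mice (n = 3) had no treatment. Sensitized mice (n = 4) had received a skin graft from 2W-OVA.BALB/c donors, which carry the antigen on an allogeneic background, and so hold memory TFGS. N+P mice were Naive until a semi-allogeneic pregnancy sired by a 2W-OVA.BALB/c male, and their TFGS were sorted post-partum into N+P C1 (PD1-, n = 3) and N+P C5 (PD1+CD73+, n = 3). S+P mice had the skin graft and then the same kind of pregnancy, and gave S+P C4 (PD1-, n = 6), S+P C5 (PD1+CD73+, n = 6) and S+P C7 (PD1+CD73-, n = 5). PD1 and CD73 are surface proteins, so the sort fixed these groups by protein and the Naive and Sensitized groups were not split by them.

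As background, T-bet (the protein of *Tbx21*) and Eomesodermin (*Eomes*) are T-box factors, T-bet favouring effector cells and Eomesodermin memory and, in chronic stimulation, exhausted cells. Zeb2 works together with T-bet to fix the terminal effector fate, and Blimp-1 (*Prdm1*) represses genes of naive and memory cells. Runx3 keeps CD8 identity and opens effector genes, Gata3 takes part in T cell activation and maintenance, and Irf4 and Bhlhe40 are switched on by the T cell receptor, Irf4 in step with the strength of the signal.

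On GRCm39, *Tbx21* (ENSMUSG00000001444) lies at chr11:96988897-97006158 on the minus strand, *Eomes* (ENSMUSG00000032446) at chr9:118307280-118315200 on the plus strand, and *Prdm1* (ENSMUSG00000038151) at chr10:44313171-44404497 on the minus strand. *Zeb2* (ENSMUSG00000026872) lies at chr2:44873644-45007464 and *Gata3* (ENSMUSG00000015619) at chr2:9861889-9894845, both on the minus strand. On the plus strand lie *Runx3* (ENSMUSG00000070691) at chr4:134847952-134905301, *Bhlhe40* (ENSMUSG00000030103) at chr6:108636626-108644502 and *Irf4* (ENSMUSG00000021356) at chr13:30933209-30950959. Counts are of whole genes, summed over exons. Exons of *Eomes*, *Zeb2*, *Bhlhe40* and *Gata3* share 430, 871, 442 and 303 bases with a gene on the opposite strand, and the partners found in the table held at most 2769 reads over all libraries (*Gm33460*, beside 84795 for *Eomes*).

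RefSeq promoters on GRCm38.p6 were at hand for 7 of the 8 genes, all but *Bhlhe40*, and the 250 bases before the start site of *Tbx21*, *Eomes* and *Irf4* are printed 5′ to 3′ because these 3 genes were ordered differently across the sorted subsets. They are at chr11:97115332-97115581 (minus strand), chr9:118477939-118478188 (plus strand) and chr13:30748983-30749232 (plus strand). Capitals mark a match on either strand to any of 8 motifs searched: T-box GGTGTGA, BHLHE E-box CACGTG, ZEB E2-box CACCTG, RUNX TGTGGT, the letters AGATAA of the Gata family, IRF GAAANNGAA, AP-1 TGANTCA and NFAT GGAAAA.
Tbx21: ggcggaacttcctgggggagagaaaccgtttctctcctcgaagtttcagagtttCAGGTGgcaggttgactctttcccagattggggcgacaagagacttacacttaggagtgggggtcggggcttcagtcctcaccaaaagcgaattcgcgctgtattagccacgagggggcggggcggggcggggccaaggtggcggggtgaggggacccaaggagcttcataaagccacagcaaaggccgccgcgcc
Eomes: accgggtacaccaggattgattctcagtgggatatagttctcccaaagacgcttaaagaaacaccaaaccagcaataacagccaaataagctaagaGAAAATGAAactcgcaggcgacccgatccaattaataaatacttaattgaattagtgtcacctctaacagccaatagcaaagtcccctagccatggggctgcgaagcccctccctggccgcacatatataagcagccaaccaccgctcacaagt
Irf4: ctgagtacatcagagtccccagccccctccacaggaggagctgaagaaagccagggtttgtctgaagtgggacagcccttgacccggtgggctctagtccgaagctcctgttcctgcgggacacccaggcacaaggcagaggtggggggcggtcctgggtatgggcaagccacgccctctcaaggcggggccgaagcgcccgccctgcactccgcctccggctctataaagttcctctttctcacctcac
The *Tbx21* window held 1 E2-box, *Eomes* 1 IRF match and *Irf4* none of the 8. Among the other promoters, *Prdm1* held an E2-box and an AP-1 match, and 1 of the 2 start sites of *Runx3* held E2-box and RUNX matches. Of the 4 start sites of *Zeb2*, 2 that overlap held an NFAT match and another held AP-1 matches, while *Gata3* held none. Such matches are common. Over 32851 promoter windows of this length, 17.2% held the E2-box, 7.13% the IRF letters, 6.75% the AP-1 letters, 20.4% the NFAT letters and 14.0% the RUNX letters, and the T-box (3.33%), CACGTG (6.02%) and GATA (9.99%) letters were in none of the 7 genes' windows.

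The 56 libraries had 6636532 to 32625243 counts, and adding up the technical libraries gave 30 samples with 15547934 to 54809406 counts. Values below are CPM, read counts scaled to the TMM-adjusted library size, and a count of 3, used as the floor, is 0.0539 to 0.298 CPM depending on the sample. One library was deposited with the same counts under Naive replicate 1 and S+P C4 replicate 1 and was left out of both, and S+P C7 replicates 1 and 2 shared a nearly identical library (r = 0.9986 of log2 CPM) and were used as 1 sample. In 3 samples 7436 to 8002 genes were detected, against at least 12383 in the other samples. These were replicates 2 and 3 of S+P C4 along with replicate 3 of S+P C7. The 5 CD8 T cell markers (*Cd3e*, *Cd3g*, *Trac*, *Cd8a*, *Cd8b1*) summed to 3359 to 7697 CPM in all samples. S+P C7 replicate 3 also held 16510 CPM of the 3 red cell markers, 6167 of the 5 myeloid, 1895 of the 3 plasma cell and 874 of the 4 NK cell markers, whose part in its values was not tested. Its myeloid sum was almost all *Cst3* (6167 CPM) and its plasma cell sum almost all *Jchain* (1895 CPM). The other myeloid markers reached at most 21.0 CPM (*Itgam*) in S+P C7, and *Sdc1* was at 0 there. In all other samples the B cell markers reached at most 62.8 CPM, the CD4 T cell markers 48.1, the gamma-delta T cell markers 11.4, the NK cell markers 145, the red cell markers 349 (S+P C4 replicate 3), the myeloid markers 419 (Sensitized replicate 1) and the plasma cell markers 445 (N+P C1 replicate 2). Of the genes behind the sort, *Pdcd1* (PD1) had medians of 178, 326 and 235 CPM in the PD1+ groups N+P C5, S+P C5 and S+P C7 against 11.9 in N+P C1 and 54.7 in S+P C4, and *Nt5e* (CD73) medians of 161 and 122 CPM in the CD73+ groups N+P C5 and S+P C5 against 23.2 in S+P C7.

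**Figure D1:**
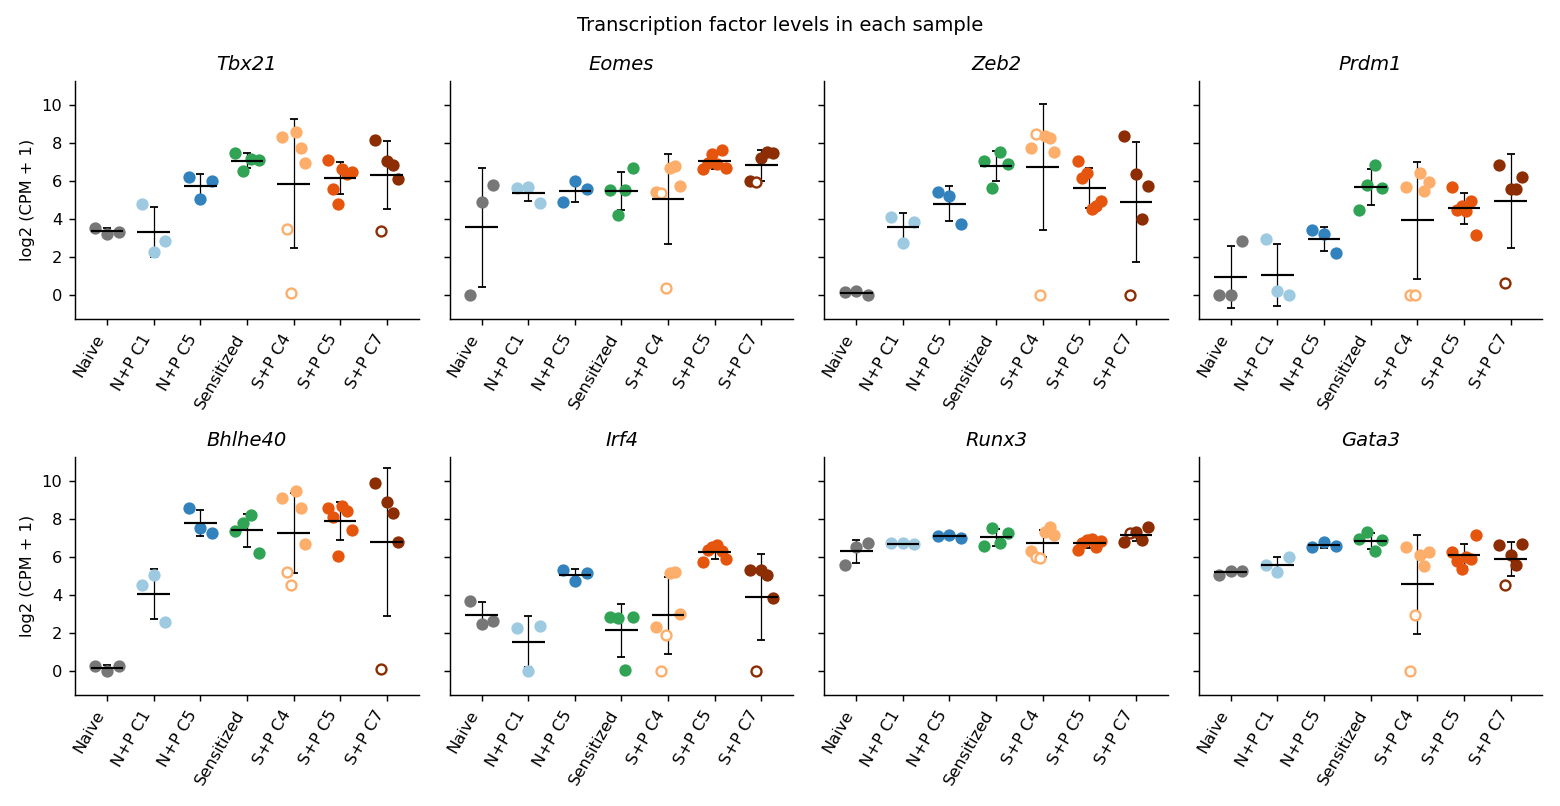
Level of each factor in each sample, as log2 (CPM + 1), by group. A point is 1 sample (a replicate of a group), open where few genes were detected, and the bar and whiskers are the mean and SD of the group. *Bhlhe40* and *Zeb2* lie near 0 in all 3 Naive samples, and the S+P C5 samples hold the 6 highest *Irf4* values.

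In unprimed TFGS, *Bhlhe40* and *Zeb2* were close to absent, while *Runx3*, *Gata3* and *Tbx21* had reads in all 3 samples. *Bhlhe40* had 5, 0 and 5 counts and *Zeb2* 3, 5 and 0 counts in the 3 Naive samples. *Runx3*, at 81.5 ± 30.8 CPM (SD, n = 3), was the highest of the 8 per kilobase of exon in Naive cells, at 16.3 CPM per kilobase. *Gata3* followed with 7.82 CPM per kilobase, *Eomes* with 6.80, *Tbx21* with 3.75, *Irf4* with 1.47 and *Prdm1* with 0.363. This order of levels depends on the summed exon length, which for *Zeb2* (22741 bases over all annotated transcripts) is long.

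Sensitization against Naive asks how memory TFGS differ from naive ones before any pregnancy. *Bhlhe40* rose from near 0 to 166, 217, 296 and 73.0 CPM in the 4 Sensitized samples. All 4 lay far above the highest Naive value of 0.206 CPM, and the fitted log2 fold change was 10.47 (SE 1.85, edgeR quasi-likelihood adjusted p = 0.00547). *Zeb2* rose in the same comparison, to 133, 49.8, 186 and 120 CPM against at most 0.166 in Naive (log2 fold change 10.24, SE 2.12, edgeR adjusted p = 0.0343). A fold against so few Naive reads has a wide counting error. Over pooled reads, with 10 *Bhlhe40* and 8 *Zeb2* counts in all of Naive, the ratio was 1440 (95% interval by the exact binomial method 781 to 3000) for *Bhlhe40* and 1310 (667 to 3050) for *Zeb2*, for counting error only.

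Both calls depend on single libraries. Without any 1 of the 3 Naive replicates *Zeb2* was no longer called (adjusted p 0.261 to 0.373), at log2 fold changes of 9.68 to 10.89, whereas *Bhlhe40* kept its call without each of the 7 samples in turn (0.00694 to 0.0969). The library deposited under both Naive and S+P C4 held 1099 *Bhlhe40*, 287 *Zeb2*, 807 *Tbx21* and 752 *Irf4* counts. With that library kept in both groups the log2 fold changes were 4.37 for *Bhlhe40* and 5.65 for *Zeb2* and neither passed (adjusted p = 0.602 for both).

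*Tbx21* did not pass the adjusted threshold. It was 10.7, 8.48 and 8.88 CPM in Naive and 180, 90.8, 144 and 140 in Sensitized, so that the groups lay well apart (log2 fold change 3.89, SE 1.26, adjusted p = 0.627). Without the 3 samples with few genes detected, none of which is in these 2 groups, the adjusted p was 0.000844 at a log2 fold change of 3.89. *Gata3* was 32.0 to 37.7 CPM in Naive and 77.4 to 156 in Sensitized (log2 fold change 1.73, SE 1.02, adjusted p = 0.678, and 0.0244 without those 3 samples). *Prdm1* was 0, 0 and 6.12 CPM in Naive and 21.5, 53.8, 114 and 48.7 in Sensitized, again without overlap (log2 fold change 4.86, SE 2.13, adjusted p = 0.627). How many of all genes lay apart between these groups was not counted. *Runx3*, *Eomes* and *Irf4* overlapped between the groups, with log2 fold changes of 0.72, 0.90 and -0.65.

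In all, 2 of the 8 factors were called for sensitization (adjusted p under 0.1 and absolute log2 fold change above 0.9), where 0.153% of all genes were, and 4 had an unadjusted p under 0.05, where 7.82% of all genes did. Their median log2 fold change was 2.81, beside 0.04 over all genes tested. Among 22 effector genes on which these factors are known to act, 8 rose and none fell: *Klrk1*, *Ccl5*, *Gzmk*, *Nkg7*, *Cxcr3*, *Fasl*, *Ifng* and *Il2rb*. *Klrk1*, an activating NK receptor, went from 16.2 CPM to 1106 (log2 fold change 6.10, SE 0.63, edgeR adjusted p = 1.18e-06), and *Gzmk*, a granzyme, from 0.0778 to 133. *Il2rb*, a known target of both T-box factors, went from 147 to 451 CPM (log2 fold change 1.62, adjusted p = 0.0903). The median over the 22 was 4.03.

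Of 15 tested relatives and partners, 1 rose, *Id2*, an inhibitor of E proteins that favours effector cells (215 to 1179 CPM, log2 fold change 2.46, SE 0.40, adjusted p = 0.00217), and none fell. The next was *Runx2* (4.85 and 43.6 CPM, adjusted p = 0.627). None of 11 quiescence factors was called in this edgeR test, and 3 had an unadjusted p under 0.05, all lower in Sensitized, led by *Satb1* (620 CPM in Naive, 176 in Sensitized) and *Lef1* (478 and 155), both with adjusted p = 0.627. None of 10 antigen receptor response genes was called or had an unadjusted p under 0.05, *Egr3* (adjusted p = 0.868) and *Nfatc1* (adjusted p = 1) being first. The 4 NK cell markers summed to 69.8 to 145 CPM in Sensitized and 0 to 28.3 in Naive, but only *Klrb1c* had the higher median in Sensitized (79.8 and 0). *Tyrobp* (9.91 in Sensitized, 15.8 in Naive) and *Fcer1g* (1.35 and 9.31) had lower medians, and *Ncr1* had a median of 0 in both groups. The part of the NK cell markers in the levels of *Tbx21* and *Zeb2*, which NK cells also use, was not tested. The 3 plasma cell markers summed to 92.0 to 390 CPM in Sensitized and 43.2 to 229 in Naive, with *Sdc1* at 0 in both groups, and their part in *Prdm1*, which plasma cells use, was not tested. In bulk samples, fewer cells with a transcript and less of it per cell cannot be told apart.

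**Figure D2:**
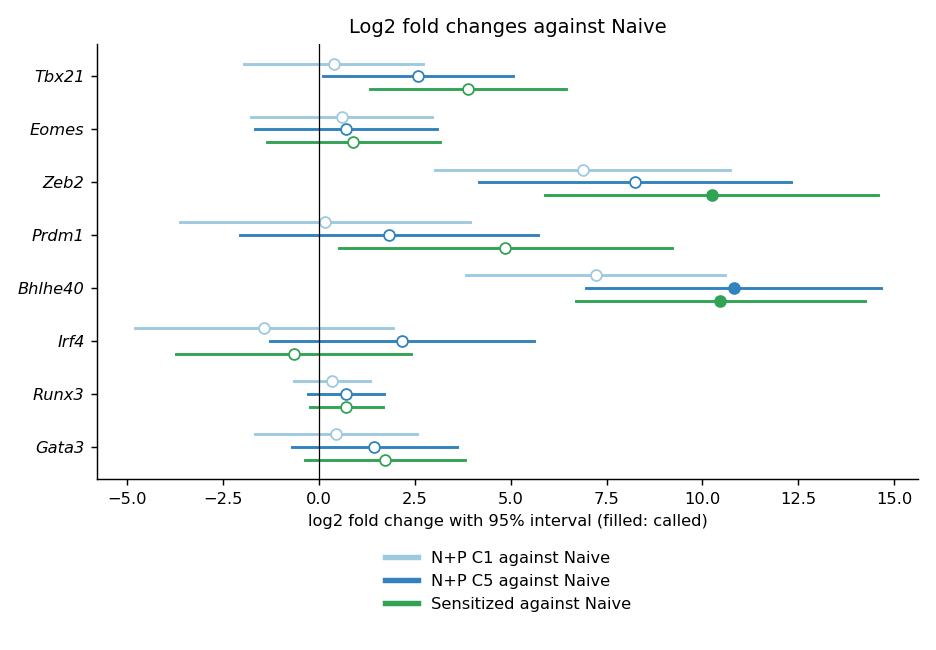
Log2 fold changes of the 8 factors in both N+P subsets and in Sensitized mice against the same 3 Naive samples, from the edgeR fit of all groups. Lines are 95% intervals, and a filled point marks a factor that was called, *Bhlhe40* for N+P C5 and Sensitized and *Zeb2* for Sensitized.

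Pregnancy in naive mice was compared with the same Naive samples, for the PD1+CD73+ subset and for the PD1- subset. In N+P C5, *Bhlhe40* rose to 379, 182 and 154 CPM, values that overlapped those of Sensitized mice (log2 fold change 10.81, SE 1.89, edgeR adjusted p = 0.0164). The call was lost without any 1 Naive replicate (adjusted p 0.152 to 0.230, at log2 fold changes of 10.21 to 11.28) and with the shared library kept (log2 fold change 4.72, adjusted p = 0.764). Its pooled ratio was 2080 (95% counting interval 1130 to 4330). *Zeb2* was 42.7, 36.4 and 12.6 CPM in N+P C5, above all Naive samples, with a log2 fold change of 8.24 (SE 1.99, adjusted p = 0.193), or 3.65 (adjusted p = 0.764) with the shared library kept.

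*Tbx21* was 72.8, 32.5 and 63.3 CPM in N+P C5 and did not overlap with Naive (log2 fold change 2.59, SE 1.21, adjusted p = 0.765). Without the 3 samples with few genes detected, *Tbx21* and *Zeb2* were called as well, with adjusted p of 0.0459 and 0.000108, among 120 of all genes in place of 8. *Irf4*, at 38.1, 25.4 and 34.0 CPM against 12.1, 4.51 and 5.10 in Naive, was apart from Naive too (log2 fold change 2.17, SE 1.69, adjusted p = 1). So were *Gata3*, at 90.4 to 108 CPM (log2 fold change 1.45), and *Runx3*, at 125 to 140 CPM (0.72). How many of all genes lay apart in this way was not counted, so these gaps are a description. *Prdm1* stayed low, at 9.78, 8.24 and 3.76 CPM, and *Eomes* overlapped with Naive at 28.7, 64.1 and 46.9 CPM. By total count, the library deposited under both Naive and S+P C4 held 45.0 CPM of *Tbx21* and 41.9 of *Irf4*. The *Tbx21* value lay above N+P C5 replicate 2, and the *Irf4* value above all 3 N+P C5 samples. For these 2 genes, lying apart from Naive thus depended on leaving that library out.

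For N+P C5 against Naive 1 of the 8 factors was called, with 0.0407% of all genes called, and 3 had an unadjusted p under 0.05, with 5.33% of all genes. Of the effector genes 1 of 22 rose, *Gzmk* (0.0778 to 15.5 CPM, log2 fold change 7.60, SE 1.5, adjusted p = 0.0541). The chemokine receptor *Cxcr3*, another T-bet target, was next (48.1 and 385 CPM, adjusted p = 0.132). No gene of the other lists was called. The 2 with the smallest p were *Id2* (515.8 CPM, adjusted p = 0.765) and *Tox* (252 CPM, adjusted p = 0.765) among the partners, *Satb1* (195 CPM, adjusted p = 0.765) and *Lef1* (216 CPM, adjusted p = 0.802) among the quiescence factors, and *Nfatc1* (252 CPM, adjusted p = 0.667) and *Nr4a2* (29.8 CPM, adjusted p = 1) among the antigen receptor response genes.

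In the PD1- subset N+P C1, no factor was called by edgeR against Naive, as was true of 0% of all genes. 2 had an unadjusted p under 0.05, where 3.23% of all genes did: *Bhlhe40*, at 22.3, 32.0 and 4.97 CPM (log2 fold change 7.22, SE 1.65, adjusted p = 0.828), and *Zeb2*, at 16.6, 5.82 and 13.3 CPM (6.89, SE 1.89, adjusted p = 0.997). Both genes were above the 3 Naive samples as used, but the library deposited under both Naive and S+P C4 had 61.3 CPM of *Bhlhe40*, more than any N+P C1 sample. With that library kept the log2 fold changes were 1.12 for *Bhlhe40* and 2.29 for *Zeb2* (adjusted p = 1 for both). DESeq2 called both, among 747 of all genes, and so did edgeR without the 3 samples with few genes detected, among 19 (adjusted p 0.00149 and 0.00295). In N+P C1 replicates 2 and 3 the *Zeb2* counts, 167 and 465, each came from 1 technical library, with 0 in the other. The 173 *Bhlhe40* counts of replicate 3 also came from 1 library, with 0 in the other. *Tbx21* was 26.6, 3.8 and 6.38 CPM, on both sides of the Naive values, and *Irf4* 3.86, 0 and 4.19 CPM, under all Naive samples (log2 fold change -1.43, SE 1.65). No list gene was called, *Gzmk* (10.5 CPM, adjusted p = 0.464) and *Ifng* (15.8 CPM, adjusted p = 0.997) having the smallest p of the effector genes. For the other lists these were *Irf8* and *Stat4*, *Foxo1* and *Klf2*, and *Nfatc1* and *Junb*, all with adjusted p = 1.

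Set against each other, N+P C5 had more *Bhlhe40* than N+P C1, with means of 239 ± 123 and 19.8 ± 13.7 CPM (SD, n = 3 each, log2 fold change 3.6, SE 1.36, adjusted p = 0.919). *Irf4* was higher by 3.29, 8.71 and 3.00 on the log2 scale in the 3 pairs of samples that share a replicate number (log2 fold change 3.6, SE 1.79, adjusted p = 0.919), and *Tbx21* in 3 of 3 pairs by a median of 3.08. The *Irf4* gap of 8.71, in replicate 2, was against a PD1- sample with 0 counts. *Prdm1* was higher in 3 of 3 pairs by a median of 5.14, but its fitted log2 fold change was 1.66 (SE 1.89). The PD1- samples of replicates 2 and 3 held only 5 and 1 *Prdm1* counts. Their PD1+CD73+ partners had 282 and 121, each from 1 technical library, with 0 in the other. *Runx3* and *Gata3* were also higher in 3 of 3 pairs, by medians of 0.40 and 0.95, and *Eomes* and *Zeb2* in 2 of 3. The edgeR test of this pair called no factor, with 0.00509% of all genes called, and *Bhlhe40* alone had an unadjusted p under 0.05, as did 4.31% of all genes. In the list genes nothing was called. The smallest p were those of *Tox* (252 and 76.0 CPM) and *Id2* (515.8 and 252), *Cxcr3* (385 and 85.8) and *Nkg7* (2000 and 1067), *Satb1* (195 and 696) and *Bcl6* (31.2 and 6.61), and *Nfatc1* (252 and 130) and *Nr4a2* (29.8 and 5.56), each pair given as means in N+P C5 and N+P C1.

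Pregnancy in sensitized mice was compared with Sensitized mice for each of the 3 subsets, which share those 4 control samples. The clearest difference was in *Irf4*. It was 6.06, 6.00, 0.0304 and 6.28 CPM in Sensitized, and from 51.9 to 96.3 CPM with a median of 79.8 in the 6 S+P C5 samples. All 6 S+P C5 values lay above every value of the other 6 groups, the highest of which was 38.1 CPM in N+P C5. The log2 fold change of 4.05 (SE 1.54) had an edgeR adjusted p of 0.277 in the fit of all groups. It was 0.0476 without the 3 samples with few genes detected, 0.0758 with only the 2 groups in the fit and 0.0256 by DESeq2, and ranged from 0.0256 to 0.541 over 16 alternatives, in which the log2 fold change stayed between 3.65 and 4.25.

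*Irf4* was lower in the other 2 subsets. In S+P C7 it was 38.0, 0, 38.0, 32.5 and 13.4 CPM, the 0 being the sample with few genes detected (log2 fold change against Sensitized 2.41, SE 1.44, adjusted p = 0.677). S+P C4 had a lowest value of 0, a median of 5.41 and a highest of 35.5 CPM, with replicates 4 and 5 at 35.0 and 35.5 and the other 4 at 6.87 or less. Ordered by mean, the groups ran N+P C1 (2.68 ± 2.33 CPM), Sensitized (4.59 ± 3.04), Naive (7.22 ± 4.20), S+P C4 (14.0 ± 16.6), S+P C7 (24.4 ± 17.0), N+P C5 (32.5 ± 6.49) and S+P C5 (76.0 ± 17.4). The neighbours in that order overlapped in range except N+P C5 and S+P C5.

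*Eomes* had its 2 highest means in the PD1+ subsets of sensitized mothers. It was 46.0, 17.9, 45.7 and 101 CPM in Sensitized, 97.7 to 202 CPM (median 120) in the S+P C5 subset and 62.6, 60.4, 150, 187 and 179 CPM in S+P C7. Only the highest Sensitized sample reached into the S+P C5 range. Neither difference passed (log2 fold change 1.36, SE 0.96, adjusted p = 0.743 for S+P C5, and 1.28, SE 0.98, adjusted p = 0.932 for S+P C7). The S+P C5 values also lay above all 3 N+P C5 values, whose highest was 64.1 CPM (log2 fold change 1.54, SE 1.08, adjusted p = 1).

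*Tbx21* and *Zeb2* were spread widely after pregnancy in sensitized mice. *Tbx21* was 0.0993, 167 and 386 CPM (lowest, median, highest) in S+P C4. Its S+P C5 values ran 27.2, 86.2 and 140, and the S+P C7 samples had 284, 9.62, 133, 112 and 69.6. *Zeb2* was 0, 260 and 351 CPM in S+P C4, against 22.6, 49.9 and 134 for S+P C5 samples, while S+P C7 had 326, 0, 81.0, 14.9 and 53.0. The 2 samples at 0 are S+P C4 replicate 3 and S+P C7 replicate 3, which had few genes detected, and without such samples the means of *Zeb2* were 260 ± 70.1 CPM in S+P C4 (n = 4) and 119 ± 141 in S+P C7 (n = 4). Against Sensitized, log2 fold changes were -0.78 (95% interval -2.60 to 1.04) for *Tbx21* and -0.99 (-3.24 to 1.26) for *Zeb2* in S+P C5, so that the data allow a drop of several-fold as well as a rise.

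*Bhlhe40*, already high in Sensitized mice, had log2 fold changes of 0.67 for C4, 0.54 for C5 and 0.98 for C7 of S+P mice, with overlapping ranges. S+P C5 ran from 66 to 409 CPM with a median of 307, S+P C4 from 22.2 to 717 with a median of 240, and S+P C7 was 962, 0.0934, 467, 314 and 110. *Prdm1* was 8.11 to 50.2 CPM in C5, 0 to 85.2 in C4 and 0.56 to 114 in C7 of S+P mice (log2 fold changes -1.20, -0.56 and -0.08). *Runx3* varied least, from 60.3 to 187 CPM over all S+P samples, with log2 fold changes of -0.22 for C4, -0.35 for C5 and 0.11 for C7. *Gata3* was 40.1 to 140 CPM in C5, 21.7 to 102 in C7 and 0 to 89.7 in C4 of S+P mice, against 77.4 to 156 in Sensitized (log2 fold changes -0.71, -0.81 and -1.31). The lowest C4 and C7 values of *Bhlhe40*, *Prdm1* and *Gata3* came from samples with few genes detected.

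**Figure D3:**
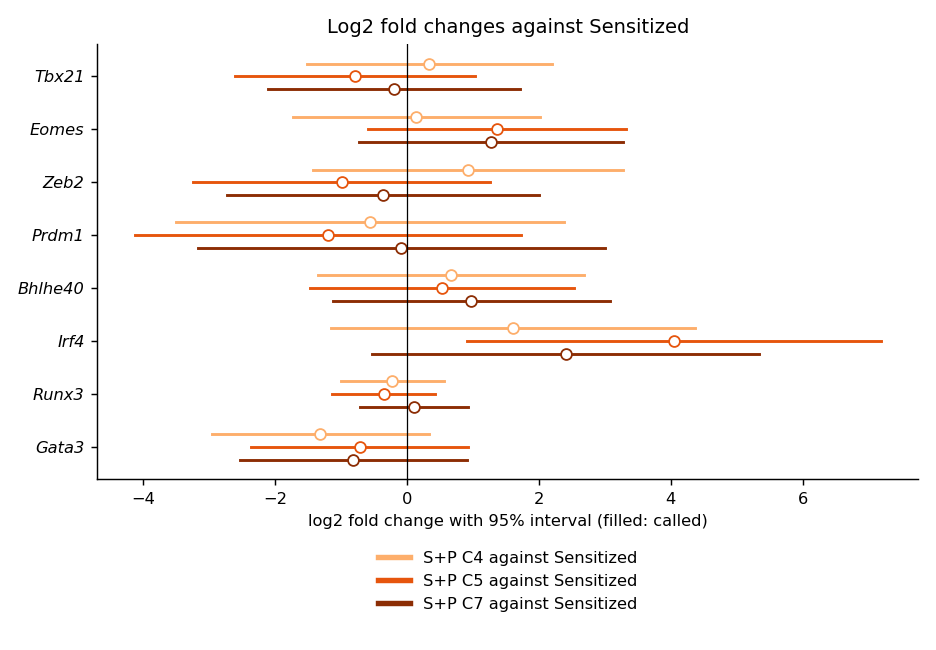
Log2 fold changes of the 8 factors in the 3 S+P subsets against the same 4 Sensitized samples, with 95% intervals. No point is filled, as none was called, and the interval of *Irf4* in S+P C5 (0.91 to 7.19) is the only one of the 24 that leaves out 0.

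None of the 8 factors was called by edgeR in these 3 comparisons, where 0.00509% (C4), 0.0712% (C5) and 0.0305% (C7) of all genes were. *Irf4* in S+P C5 was the 1 factor with an unadjusted p under 0.05, against 12.7%, 13% and 10.2% of all genes in the 3 comparisons, a share of the factors that is not above this background. The median of their log2 fold changes was 0.24, -0.53 and 0.01, beside -0.14, -0.01 and 0 over all genes.

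Of the partners, 1 rose against Sensitized in each PD1+ subset of S+P mice, in both cases *Tox*, a factor known for sustaining exhausted cells. It was 43.5 CPM in Sensitized, 394 in the S+P C5 subset (log2 fold change 3.18, SE 0.53, adjusted p = 0.0118) and 352 in S+P C7 (3.02, SE 0.53, adjusted p = 0.019). The next were *Id2* (654 CPM, adjusted p = 0.277) in S+P C5 and *Irf8* (55.0 CPM, adjusted p = 0.473) in S+P C7. Of the quiescence factors 1 fell in each of the 2 subsets, in both cases *Satb1*, a chromatin organizer, from 176 CPM to 26.3 in S+P C5 (log2 fold change -2.74, SE 0.52, adjusted p = 0.0339) and 25.0 in S+P C7 (-2.82, SE 0.56, adjusted p = 0.0692). *Lef1* (51.3 CPM, adjusted p = 0.277) and *Tcf7* (210 CPM, adjusted p = 0.48) were next.

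No effector gene was called against Sensitized in any subset. In S+P C5, 5 of 22 had an unadjusted p under 0.05, all of them lower, led by *Klrk1* (503 CPM against 1106) and the pore-forming *Prf1* (92.4 against 231.5), both with adjusted p = 0.277. The median of the 22 was -1.12 for C5, 0.34 for C7 and 0.62 for C4. In S+P C7 *Klrk1* (516 CPM) and *Gzmk* (625) came first (adjusted p = 0.473), and in S+P C4 *Gzma* (3907 CPM against 122, adjusted p = 0.394) and *Gzmb* (760 against 86.0, adjusted p = 0.439). Among antigen receptor response genes, none was called, and *Nfatc1*, a partner of Irf4 downstream of the receptor, had the smallest p in S+P C5 (324 CPM against 121, adjusted p = 0.205) and S+P C7 (243 CPM, adjusted p = 0.473). After it came *Nr4a2* in S+P C5 (97.4 CPM, adjusted p = 0.417) and *Myc* in S+P C7 (22.0 CPM, adjusted p = 0.473). In S+P C4 the first genes of the remaining lists were *Tox* and *Stat4* (adjusted p 0.317 and 0.37), *Myb* and *Bach2* (0.49 and 0.67), and *Myc* and *Nfatc1* (0.569 and 0.588).

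The labels give the 3 S+P subsets the same replicate numbers. These may be mouse numbers, since cells came from individual mice, but the sources used here do not say so, and the differences within a number are given as a description. *Irf4* was higher in S+P C5 than in S+P C4 in 6 of 6 pairs, by 3.69, 10.4, 4.98, 1.46, 1.15 and 3.08 on the log2 scale. It was lower in S+P C7 than in S+P C5 in 5 of 5 pairs, by a median log2 difference of -1.34. The 2 pairs with the widest gaps, 10.4 in number 2 and -10.5 in number 3, each include a sample with few genes detected. In the fit of all groups the log2 fold changes were 2.44 (SE 1.21, adjusted p = 0.382) and -1.64 (SE 1.25, adjusted p = 0.879).

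*Eomes* was higher in S+P C5 than in S+P C4 in 6 of 6 pairs, by a median of 1.10, and in S+P C7 than in S+P C4 in 5 of 5 pairs, by a median of 0.75. *Zeb2* went the other way in most pairs. It was lower in S+P C5 than in S+P C4 in 5 of 6 pairs, by a median of -2.49, and the exception was number 3, whose S+P C4 sample had few genes detected and no *Zeb2* count (log2 fold change -1.92, SE 1.04, adjusted p = 0.454). The NK cell markers also had a lower median in S+P C5, 8.40 CPM (0.0254 to 62.3) against 57.1 in S+P C4 (0.833 to 106). The median of *Ncr1* was 0 in both. Sample by sample the order varied. S+P C5 replicate 1 was the highest of its group in both *Zeb2* and these markers. S+P C4 replicate 2, with few genes detected, had the highest *Zeb2* of its group (351 CPM) and the lowest marker sum (0.833 CPM). The part of these markers in *Zeb2* and *Tbx21* was not tested. *Tbx21* was lower in S+P C5 in 4 of 6 pairs, the 2 others being numbers 2 and 3, whose S+P C4 samples had few genes detected (log2 fold change -1.13, SE 0.82, adjusted p = 0.674). *Runx3* was higher in S+P C7 than in S+P C5 in 5 of 5 pairs, by 0.37 to 0.70 (log2 fold change 0.46, SE 0.36, adjusted p = 0.903), and *Gata3* was higher in S+P C7 than in S+P C4 in 5 of 5 pairs, by 0.01 to 1.70. The *Gata3* gap of 1.70 was in number 3, where both samples had few genes detected.

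**Figure D4:**
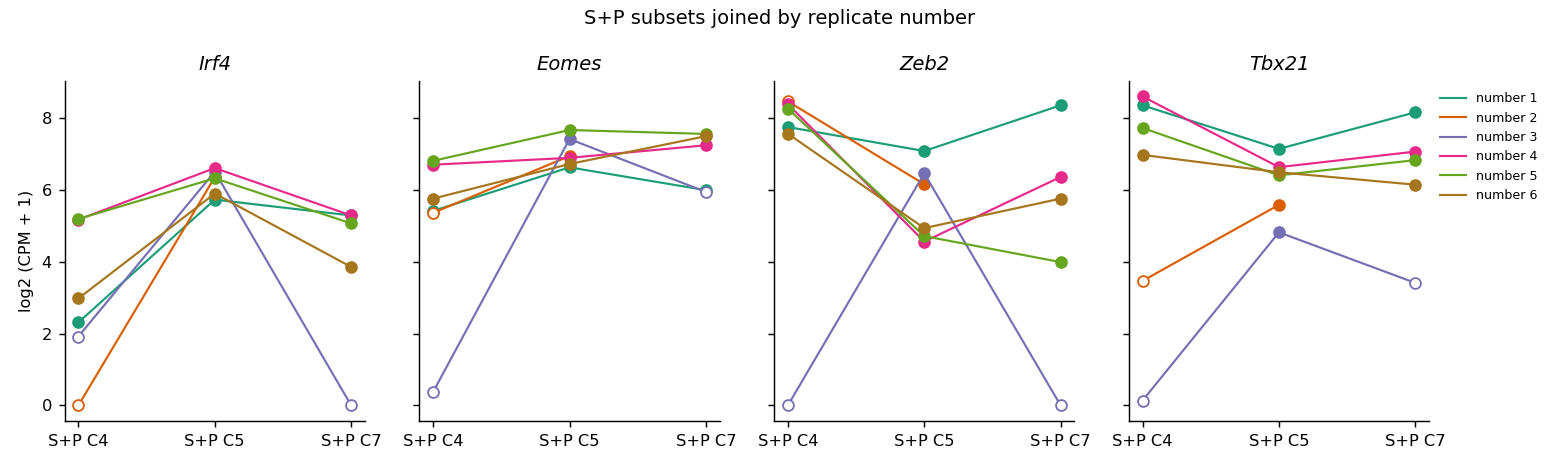
Levels of *Irf4*, *Eomes*, *Zeb2* and *Tbx21* as log2 (CPM + 1) in the S+P subsets, joined by a line per replicate number, with open points where few genes were detected. Number 2 has no S+P C7 point of its own because its sample was joined with that of number 1. *Irf4* is highest in S+P C5 for all 6 numbers.

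Among S+P subsets no factor was called or had an unadjusted p under 0.05 in the edgeR fit. Over all genes 0.0305% were called for S+P C5 against S+P C4, 0.00509% for S+P C7 against S+P C4 and 0% for S+P C7 against S+P C5, and 13.3%, 15.9% and 12.7% had an unadjusted p under 0.05. The quiescence factor *Satb1* fell from 305 CPM in S+P C4 to 26.3 in S+P C5 (log2 fold change -3.53, SE 0.51, adjusted p = 0.00183) and 25.0 in S+P C7 (-3.61, SE 0.56, adjusted p = 0.0054), the 1 list gene called in each. *Klf2* was next in both (234 CPM in S+P C5, adjusted p = 0.262, and 297 in S+P C7, adjusted p = 0.244).

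Of the other lists none was called among S+P subsets. *Prf1* was 351 CPM in C4, 92.4 in C5 and 317 in C7, and *Ccl5*, a chemokine, 12780, 3517 and 11660 CPM. For S+P C5 against S+P C4 their adjusted p were 0.208 and 0.297, and for S+P C7 against S+P C5 0.278 each. 8 of the 22 effector genes had an unadjusted p under 0.05 with a lower level in S+P C5 than in S+P C4, the terminal effector genes *Klrg1* and *S1pr5* among them (33 against 244 CPM and 28.3 against 229), and 1, *Cxcr3*, a higher one. *Klrk1* (adjusted p = 0.244) and *Klrd1* (0.476) came first for S+P C7 against S+P C4. The first partners were *Tox* and *Stat4* (0.297 each) for S+P C5 against S+P C4, *Tox* and *Zeb1* (0.244 and 0.263) for S+P C7 against S+P C4, and *Id2* and *Zeb1* (0.278 each) for S+P C7 against S+P C5, where the quiescence genes *Tcf7* (0.278) and *Klf3* (0.329) led. Antigen receptor response genes were led by *Nfatc1* and *Nr4a2* (0.297 and 0.422), *Fosl2* and *Nr4a3* (0.398 and 0.564), and *Nfatc1* and *Nr4a2* (0.873 and 1), in the same order of comparisons.

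The balance of the 2 T-box factors was set out per kilobase of exon, as log2 of *Tbx21* over *Eomes* with 2 counts added to each. In Sensitized samples *Tbx21* exceeded *Eomes* in 4 of 4, with log2 ratios of 2.71, 3.08, 2.40 and 1.21. The S+P C4 median was 1.82, with 5 of 6 samples above 0, 1 of them at 0.002 with few genes detected. In the PD1+ subsets of S+P mice the medians were -0.03 (C5) and 0.01 (C7), with 3 of 6 and 3 of 5 above 0, and single samples ran from -1.90 to 1.26 in C5 and from -1.90 to 2.92 in C7. In N+P C5 the ratios were 2.08, -0.24 and 1.17, and in N+P C1 all 3 were below 0, at -0.16, -2.96 and -1.40. Naive samples gave 7.77, -1.04 and -1.89, and the first of these comes from a sample with no *Eomes* count.

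**Figure D5:**
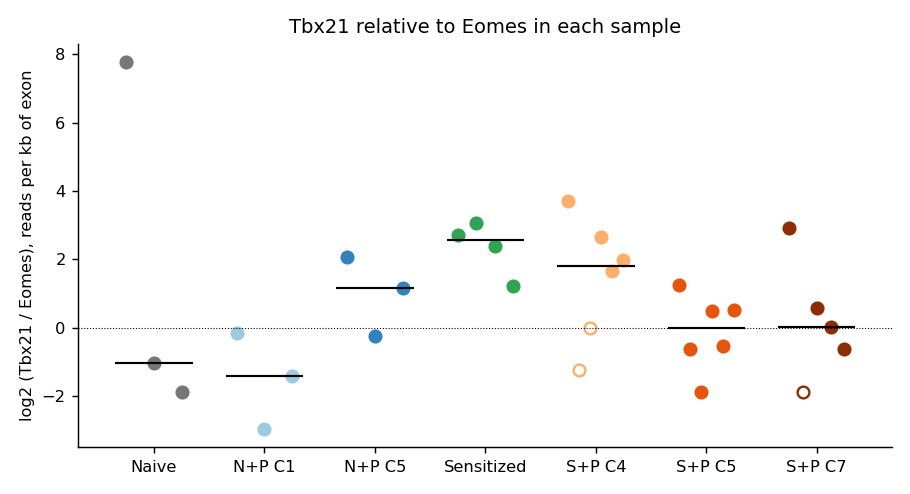
Log2 ratio of *Tbx21* to *Eomes* in reads per kilobase of exon in each sample by group, with a bar at the median and open points where few genes were detected. Sensitized samples lie above 0 and S+P C5 samples on both sides of it.

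The PD1+CD73+ subsets of naive and sensitized mothers were also compared directly. For S+P C5 against N+P C5 no factor was called by edgeR or had an unadjusted p under 0.05, with 0% and 5.88% of all genes. *Eomes* and *Irf4* were higher in S+P C5 without overlap (135 ± 41.1 against 46.6 ± 17.7 CPM, and 76.0 ± 17.4 against 32.5 ± 6.49, SD, n = 6 and 3), and *Runx3* was lower without overlap (105 ± 16 against 134 ± 7.86). How many of all genes did not overlap here was not counted, so these gaps are a description. *Bhlhe40* differed by 0.19 (95% interval -1.99 to 2.37) and *Tbx21* by 0.52 (-1.54 to 2.59), intervals that leave room for a difference of several-fold either way. No list gene was called. The first were *Klrk1* (503 and 83.0 CPM, adjusted p = 0.135) and *Ccl5* (3517 and 645, adjusted p = 0.809), *Satb1* (26.3 and 195, adjusted p = 0.135) and *Lef1* (51.3 and 216, adjusted p = 0.809), *Stat4* (289 and 158, adjusted p = 0.809) and *Tox* (394 and 252, adjusted p = 1), and *Nr4a2* and *Nfatc1* (adjusted p = 1 for both).

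Whether the change with pregnancy differed between sensitized and naive mice was tested as an interaction, the log2 fold change of S+P C5 against Sensitized minus that of N+P C5 against Naive. Naive and Sensitized cells were not split by PD1 and CD73, so pregnancy and the sort cannot be told apart in either fold. *Bhlhe40* passed, at -10.28 (SE 1.96, edgeR adjusted p = 0.0529), as its fold was 0.54 on the log2 scale in sensitized mice and 10.81 in naive mice. *Zeb2* had -9.23 (SE 2.21, adjusted p = 0.349) and *Tbx21* -3.37 (SE 1.49, adjusted p = 0.697). For *Bhlhe40* and *Zeb2* the value rests on the near absence of reads in Naive samples. With the library deposited under both groups kept, *Bhlhe40* gave -4.18 (adjusted p = 0.715), and leaving out 1 sample at a time lost the call in 10 of 16 fits, those without Naive replicates 1, 2 and 3 (adjusted p 0.579, 0.334 and 0.432), N+P C5 replicate 1, Sensitized replicates 3 and 4, and S+P C5 replicates 3, 4, 5 and 6.

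One factor of 8 was called in the interaction, with 0.0254% of all genes called, and 3 had an unadjusted p under 0.05, with 6.42% of all genes. Of the effector genes 1 of 22 was called, *Klrk1* (-3.50, SE 0.67, adjusted p = 0.0529), followed by *Gzmk* (-6.46, adjusted p = 0.4). The other lists gave no call, with *Id2* (-2.12, adjusted p = 0.317) and *Tox* (1.48, adjusted p = 0.81), *Satb1* and *Tcf7*, and *Egr3* and *Fosl2* first (adjusted p = 1 for these 4).

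Ordered by mean CPM, *Bhlhe40* ran Naive (0.132 ± 0.114), N+P C1 (19.8 ± 13.7), Sensitized (188 ± 93.6), N+P C5 (239 ± 123), S+P C5 (272 ± 133), S+P C4 (299 ± 291) and S+P C7 (371 ± 377). Neighbouring groups overlapped from Sensitized upwards, and Naive, N+P C1 and Sensitized did not. *Zeb2* ran Naive (0.0964 ± 0.0861), N+P C1 (11.9 ± 5.54), N+P C5 (30.6 ± 15.9), S+P C5 (61.5 ± 44.4), S+P C7 (94.9 ± 133), Sensitized (122 ± 55.9) and S+P C4 (232 ± 131), with a gap between neighbours only from Naive to N+P C1. *Tbx21* ran Naive (9.34 ± 1.16), N+P C1 (12.3 ± 12.5), N+P C5 (56.2 ± 21.1), S+P C5 (80.7 ± 39.7), S+P C7 (122 ± 102), Sensitized (139 ± 36.7) and S+P C4 (176 ± 161), with a gap only from N+P C1 to N+P C5.

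*Eomes* ran Naive (28.3 ± 27.7), N+P C1 (42.7 ± 12.5), N+P C5 (46.6 ± 17.7), Sensitized (52.7 ± 34.9), S+P C4 (58.1 ± 41.9), S+P C7 (128 ± 62.1) and S+P C5 (135 ± 41.1). *Prdm1* ran Naive (2.04 ± 3.53), N+P C1 (2.29 ± 3.79), N+P C5 (7.26 ± 3.13), S+P C5 (25.9 ± 13.9), S+P C4 (40.4 ± 34.2), S+P C7 (56.2 ± 41.5) and Sensitized (59.5 ± 39). *Gata3* ran Naive (35.6 ± 3.10), S+P C4 (47.6 ± 37.4), N+P C1 (48.4 ± 13.1), S+P C7 (67.4 ± 34.4), S+P C5 (72.1 ± 35.6), N+P C5 (97.3 ± 9.27) and Sensitized (118 ± 32.2). Without the samples with few genes detected, *Gata3* in S+P C4 was 69.7 ± 18.95 CPM (n = 4), above N+P C1. *Runx3* means lay between 81.5 ± 30.8 in Naive and 144 ± 31.6 in S+P C7. In these 4 genes every pair of neighbours overlapped.

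The factors were followed across the 30 samples by Pearson correlation of log2 CPM, given as a description since samples share groups and depth. *Tbx21* and *Prdm1* (r = 0.85, and 0.85 in the 27 samples without few genes detected) and *Zeb2* and *Bhlhe40* (0.83 and 0.89) were the closest pairs among the 8. *Irf4* had r between 0.21 and 0.50 with the other 7. *Zeb2* and *Gata3* depended on the 3 samples with few genes (0.14 with them and 0.56 without). Among 8250 genes with a symbol and at least 10 CPM on average, those most like *Tbx21* were *Arhgap26*, *Ctsd* and *Mapre2* (r 0.86 each), those most like *Eomes* *Atp10a* (0.92), *A430093F15Rik* (0.88) and *Nab1* (0.86), and those most like *Prdm1* *Casp1* (0.88), *Smim3* (0.86) and *Tbx21* itself.

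*Zeb2* was most like *Lgals3* (0.94), *Gpr160* (0.88) and *Dock5* (0.88), and *Bhlhe40* most like *Ttc39c* (0.88), the inhibitory NK receptor gene *Klrc1* (0.86) and *Zeb2*. *Irf4* was most like *A530083M17Rik* (0.78), *Trgc4* (0.77) and *Tnip3* (0.77), and *Runx3* most like *Etfrf1* (0.75), *Tmem241* (0.74) and *Kif16b* (0.74). The genes most like *Gata3*, *Coa3* (0.95), *Dguok* (0.94) and *Sdf4* (0.94), were so only through the samples with few genes, as without them r was 0.62, 0.30 and 0.14.

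Technical libraries of the same replicate show the spread of single libraries. The 3 pairs that include a library identical or nearly identical to one of another replicate were left out. Over the other 22 pairs, the median absolute log2 ratio between libraries, with 1 CPM added, was 0.41 for *Runx3*, 0.50 for *Gata3*, 0.53 for *Bhlhe40*, 0.64 for *Zeb2*, 0.67 for *Eomes*, 0.78 for *Tbx21*, 1.04 for *Irf4* and 1.31 for *Prdm1*. In 4 pairs for *Prdm1* and 2 for *Zeb2*, 1 library was at or under 3 counts while the other had over 100.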

How the data were processed

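RNA-Seq was done on sorted TFGS of 7 groups. The counts the authors deposited are raw reads per gene, 1 column a library, made by trimming with Cutadapt 3.4, alignment with STAR 2.6.1b to GRCm39, removal of reads mapping to several places and counting with featureCounts 2.0.1. The strand setting and annotation release are not given in the sources used here, so reads of overlapping genes on opposite strands may be mixed. Positions are from GENCODE M39, which held 54749 of the 55359 genes.

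Technical libraries were summed, giving 30 samples. Cells came from individual mice in more than 1 experiment, and experiments are not assigned to samples here. Subsets share replicate numbers, but no source used here says that a number marks a mouse. edgeR 4.0.16 was run in R 4.3.3 with TMM scaling, filterByExpr (at least 10 counts) and a robust two-sided quasi-likelihood test in which all 7 groups shared the spread, with Benjamini-Hochberg adjustment over 19657 genes and 12 contrasts, and genes were called at adjusted p under 0.1 and absolute log2 fold change above 0.9. DESeq2 1.42.0, RLE scaling, no filter, only the groups compared, all 56 columns, leaving out samples and a block on the replicate number were alternatives. In a first check on simulated data the test missed most of the changes put in, so a gene that was not called may still differ. Plots used Python 3.11.15.

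The 8 factors, the lists and the markers were chosen with earlier results of these data known. List genes were named where called, or otherwise the 2 of smallest p per list, and for each factor the 3 genes of highest correlation. *Klrg1*, *S1pr5*, *Cxcr3* and *Ccl5* in some comparisons were picked from their values. The share of all genes whose groups did not overlap was not counted, so a lack of overlap is given as a description. Reads carried no molecular identifiers, so floors and intervals cover counting error only.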

Additional observations from a re-analysis of the deposited data

Results flagged for a closer look

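In groups of 4 to 10 samples, 7 of 32 sets of log2 CPM values (8 factors in 4 groups) had a sample farther from the rest than Dixon's 95% limit allows, where chance gives about 5% of sets. 6 of the 7 fell in the samples with few genes detected. In S+P C7 replicate 3, *Prdm1* was 0.56 CPM, *Bhlhe40* 0.0934 and *Irf4* 0, each the lowest of 5. In S+P C4 replicate 3, *Eomes* was 0.298 CPM and *Zeb2* 0, and in S+P C4 replicate 2 *Gata3* was 0. The remaining set was *Irf4* in Sensitized, where replicate 3 had 0.0304 CPM (1 count) against 6.00 to 6.28 in the other 3. Without that sample the log2 fold change of *Irf4* for S+P C5 against Sensitized was 3.65 in place of 4.05.

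For *Bhlhe40*, the fold of S+P C5 against Sensitized differed from that of N+P C5 against Naive by the interaction test (-10.28 on the log2 scale, edgeR adjusted p = 0.0529). Pregnancy and the PD1+CD73+ sort cannot be told apart in it. The call was kept in 11 of 22 alternatives, with values from -10.75 to -4.18. The Naive values of *Bhlhe40* were 0.206, 0 and 0.189 CPM.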

How the results depend on the processing

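Of the 12 counts of called factors, 5 changed under some alternative by over 1.5 times. For Sensitized against Naive, 2 factors became 4 by DESeq2, 4 with only the groups compared, 4 without the samples with few genes detected and 0 with all 56 columns kept. For N+P C1 against Naive, 0 became 2 by DESeq2 and 2 without the samples with few genes. For N+P C5 against Naive, 1 became 2 by DESeq2, 2 with no filter, 4 with only the groups compared, 3 without the samples with few genes and 0 with all columns. For S+P C5 against Sensitized, 0 became 1 (*Irf4*) by DESeq2, with only the groups compared and without the samples with few genes. For the interaction, 1 became 2 by DESeq2, 3 with only the groups compared, 4 without the samples with few genes and 0 with all columns. Leaving out 1 sample at a time gave 1 to 2 for Sensitized against Naive, 0 to 1 for N+P C5 against Naive and 0 to 1 for the interaction, and changed no other count. By DESeq2, without the samples with few genes and with only the groups compared, calls over all genes rose too. The exception was N+P C1 against Naive with only the groups compared. By DESeq2 they went from 30, 0, 8, 14 and 5 to 1102, 747, 1015, 1059 and 825 in the 5 comparisons in the order given, without the samples with few genes to 153, 19, 120, 199 and 27, and with only the groups compared to 98, 0, 57, 142 and 30. With all columns kept they went to 20, 0, 5, 13 and 1, and with no filter to 14, 0, 14, 7 and 2. RLE scaling changed no count of called factors and moved no log2 fold change of a factor by more than 0.102. Deviations of samples with the same number correlated weakly (0.017 to 0.066 in N+P and 0.043 to 0.313 in S+P subsets). Between different numbers r was -0.054 to -0.006 in N+P. In the 3 pairs of S+P subsets the mean r was 0.109, 0.174 and 0.116 for the same number and -0.017, -0.024 and -0.019 for different numbers, with overlapping ranges. Samples of the same number were thus slightly more alike on average, and whether a number marks a mouse was not tested. With the replicate block, 0 factors were called in each of the 4 comparisons between subsets that share numbers, as without it, while the count over all genes went from 1 to 29 for N+P C5 against N+P C1, 6 to 3 for S+P C5 against S+P C4 and 1 to 0 for S+P C7 against S+P C4. The 14 pairs of factor and comparison with an unadjusted p under 0.05 kept their sign in every alternative run, and 25 of the other 82 changed sign in at least 1, never with a call. With all columns kept, the shared library adds reads to Naive replicate 1, and the other causes were not tested.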
